A study of Mus musculus with 8 samples.

Results

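The 44 genes described here encode the proteins that copy DNA and make its building blocks: licensing factors and helicase subunits, polymerases, the sliding clamp and its loader, single-strand binding proteins, enzymes of nucleotide synthesis and the chromatin factors that follow the fork. They were chosen by name and function, with earlier results of these data known. Each name matched 1 gene among the 55385 gene identifiers of the expression table. Their RNA was measured in the livers of 4 Usp39-HKO mice, in which Usp39, a protein of the spliceosome, was deleted in hepatocytes, and of 4 control littermates, with one sequencing library per mouse and no pooling. All 8 mice were male, 5 weeks old, on the C57BL/6J background and fasted for 16 h before the liver was taken. The mutants came from crossing Usp39 fl/fl mice, whose exon 2 lies between loxP sites, with an Albumin-Cre line. The labels give the control genotype as WT, and the sources used here do not say whether the controls carried floxed alleles. Albumin-Cre was used to delete Usp39 in hepatocytes, and RNA of whole tissue holds hepatocytes together with the other cells of the liver. Usp39 was not measured by cell type in these data. In such bulk RNA, a change in the number of cells of a type and a change in RNA per cell cannot be told apart.

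Before S phase, the origin recognition complex, Cdc6 and Cdt1 load the ring of Mcm2 to Mcm7 onto DNA, and Cdc45 and the GINS complex then join it to form the moving helicase. DNA polymerases alpha with primase, delta and epsilon copy the strands, and Pcna is the sliding clamp. Ribonucleotide reductase, thymidylate synthase and their partners supply deoxynucleotides. Many of these genes are known targets of E2F transcription factors, are expressed around S phase and are low in the adult liver, where most hepatocytes are out of the cell cycle.

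Because E2F control is a known property of the family, the promoters were searched for 4 forms of the E2F site (TTTCCCGC, TTTCGCGC, TTTGCCGC and TTTGGCGC, on either strand). RefSeq start sites on GRCm38.p6 were used, from 250 bases before to 50 bases after the start, a window of 300 bases. Of the 44 genes, 37 had a promoter in the RefSeq table, and 15 of the 37 (40.5%) held a match, against 704 of 27025 genes (2.6%) and 2.26% of 32851 promoters of that length. Shown here are the 3 members with the largest rise that held a match (Mcm5, Uhrf1 and Lig1) and the member whose change was nearest to 0 (Dut), which held none. Mcm10, also without a match, is shown because it was the only member that fell, and it was chosen after its values were seen. Letters in capitals mark the E2F match, and each sequence is written on the strand of its gene.
Mcm5, chr8:75109259-75109558, plus strand: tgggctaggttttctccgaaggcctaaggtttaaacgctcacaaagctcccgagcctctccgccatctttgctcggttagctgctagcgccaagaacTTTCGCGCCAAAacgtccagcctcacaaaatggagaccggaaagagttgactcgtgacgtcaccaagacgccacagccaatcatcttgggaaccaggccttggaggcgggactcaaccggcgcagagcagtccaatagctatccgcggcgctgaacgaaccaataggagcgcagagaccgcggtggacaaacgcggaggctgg
Uhrf1, chr17:56304063-56304362, plus strand: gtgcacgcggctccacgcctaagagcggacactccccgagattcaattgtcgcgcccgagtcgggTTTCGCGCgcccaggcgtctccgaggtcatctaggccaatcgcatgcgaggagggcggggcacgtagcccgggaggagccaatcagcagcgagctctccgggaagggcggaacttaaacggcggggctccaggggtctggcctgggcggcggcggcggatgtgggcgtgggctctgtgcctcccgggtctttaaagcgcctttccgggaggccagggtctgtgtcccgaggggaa
Lig1, chr7:13278576-13278875, plus strand: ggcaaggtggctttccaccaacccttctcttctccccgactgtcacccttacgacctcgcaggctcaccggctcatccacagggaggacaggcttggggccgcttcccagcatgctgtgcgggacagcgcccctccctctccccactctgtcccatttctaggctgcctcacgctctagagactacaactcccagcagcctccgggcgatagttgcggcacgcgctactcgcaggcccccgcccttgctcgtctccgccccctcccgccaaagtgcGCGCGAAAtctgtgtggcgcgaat
Dut, chr2:125247265-125247564, plus strand: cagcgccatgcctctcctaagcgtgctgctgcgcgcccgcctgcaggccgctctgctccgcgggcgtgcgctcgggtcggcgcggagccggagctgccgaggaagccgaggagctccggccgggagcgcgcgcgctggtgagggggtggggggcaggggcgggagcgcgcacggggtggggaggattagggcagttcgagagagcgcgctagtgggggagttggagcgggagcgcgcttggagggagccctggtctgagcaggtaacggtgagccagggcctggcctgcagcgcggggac
Mcm10, chr2:5012742-5013041, minus strand: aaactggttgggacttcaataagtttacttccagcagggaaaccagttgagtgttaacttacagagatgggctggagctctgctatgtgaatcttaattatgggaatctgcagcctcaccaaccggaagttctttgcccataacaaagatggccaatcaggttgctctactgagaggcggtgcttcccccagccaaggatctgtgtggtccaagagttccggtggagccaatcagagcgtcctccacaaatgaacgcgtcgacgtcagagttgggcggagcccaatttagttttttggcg
The capitals in the Mcm5 promoter cover a pair of overlapping matches, TTTCGCGC from base -153 and GCGCCAAA (TTTGGCGC on the other strand) from base -149, counted from the start site. The match of Uhrf1 is TTTCGCGC from base -185, and that of Lig1 is GCGCGAAA from base 27, which lies past the start. Uhrf1 has 2 promoters in the table and Lig1 has 3, and the one with the match is shown. A match is a description of the letters in this window and not evidence of a bound factor.

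FPKM, the level scale used below, is the count of a gene per kilobase of exon, scaled to the total counts of the mouse. Libraries held 8589636 to 10418450 counts, and a floor of 3 counts corresponded to 0.288 to 0.349 CPM (counts scaled to the same total). The defining hepatocyte genes were present in all 8 livers. Alb, the main plasma protein, was at 7956 ± 533 FPKM (SD, n = 4) in controls and 8423 ± 1155 in Usp39-HKO. Its groups overlapped, and its log2 fold change was -0.16 (adjusted p = 0.539, edgeR). Usp39 itself, at chr6:72318678-72345184 on the minus strand, was at 9.36, 10.4, 8.76 and 9.78 FPKM in the controls and at 8.38, 8.63, 8.70 and 8.07 in Usp39-HKO livers, with no overlap. Its log2 fold change was -0.43 (SE 0.11, adjusted p = 0.0160, edgeR), a count over all 13 merged exons that is not limited to the deleted exon. The call held in 13 of 16 alternatives and in each fit that left out a mouse, and was lost in the 3 without a factor for library composition, at -0.18 with no factors (adjusted p = 0.211, edgeR). Control mouse A475 carried RNA of digestive enzymes of the pancreas, with 8 markers summing to 603 FPKM against 2.92 to 5.03 in the other 7 mice. Mouse A474 lay farthest out among Usp39-HKO livers on the first principal component, and A469 lay apart on the second, so the number of members that rose is also given without each of these mice. TMM factors, which put libraries of different composition on one scale, lay between 0.904 and 0.933 in the controls and between 1.01 and 1.20 in the mutants. Without them the median log2 fold change of all genes tested moved from -0.0021 to 0.25, so each change below is relative to the other genes of the liver.

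Of the 44 genes, 40 had a mean of at least 10 counts over the 8 mice and were tested with edgeR's quasi-likelihood test. At an adjusted p under 0.05 (Benjamini-Hochberg over all genes tested), 15 rose in Usp39-HKO livers, 1 (Mcm10) fell and 24 passed in neither direction. The 15 make up 37.5% of the members tested, against 12.4% of all 14009 genes tested (1740 genes), and the 1 makes up 2.5%, against 13.2% of all genes (1849 genes). The median log2 fold change of the 40 members was 0.40, against -0.0021 over all genes, and 32 members were above 0 and 8 below. The 15 were Gins2, Mcm5, Uhrf1, Rrm2, Chaf1a, Pole, Cdc45, Lig1, Rrm1, Pola1, Mcm2, Mcm6, Mcm3, Mcm7 and Tyms, with log2 fold changes from 1.99 down to 0.52. Gins2 and Uhrf1 had a mean under 10 counts in the controls and met the minimum only through their higher Usp39-HKO counts. Both are counted in the 15 and in the 37.5%, so their rise adds no support to that share. Left out for low counts were Orc1, Cdc6, Pole2 and Fen1, whose mean counts were 3.63, 5.25, 7.50 and 2.38. With no TMM factors 23 members rose and 1 fell, while the whole table gave 3953 genes higher and 748 lower. Leaving out control A475 gave 8 members higher, where all genes higher went from 1740 to 1137 (8.12% of those tested). Leaving out control A468 gave 9, where all genes higher were 1283 (9.16%), and Mcm10 fell in both. Without A474 the number was 11, with 1135 genes higher, and without A469 it was 15, with 2058.

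**Figure D1:**
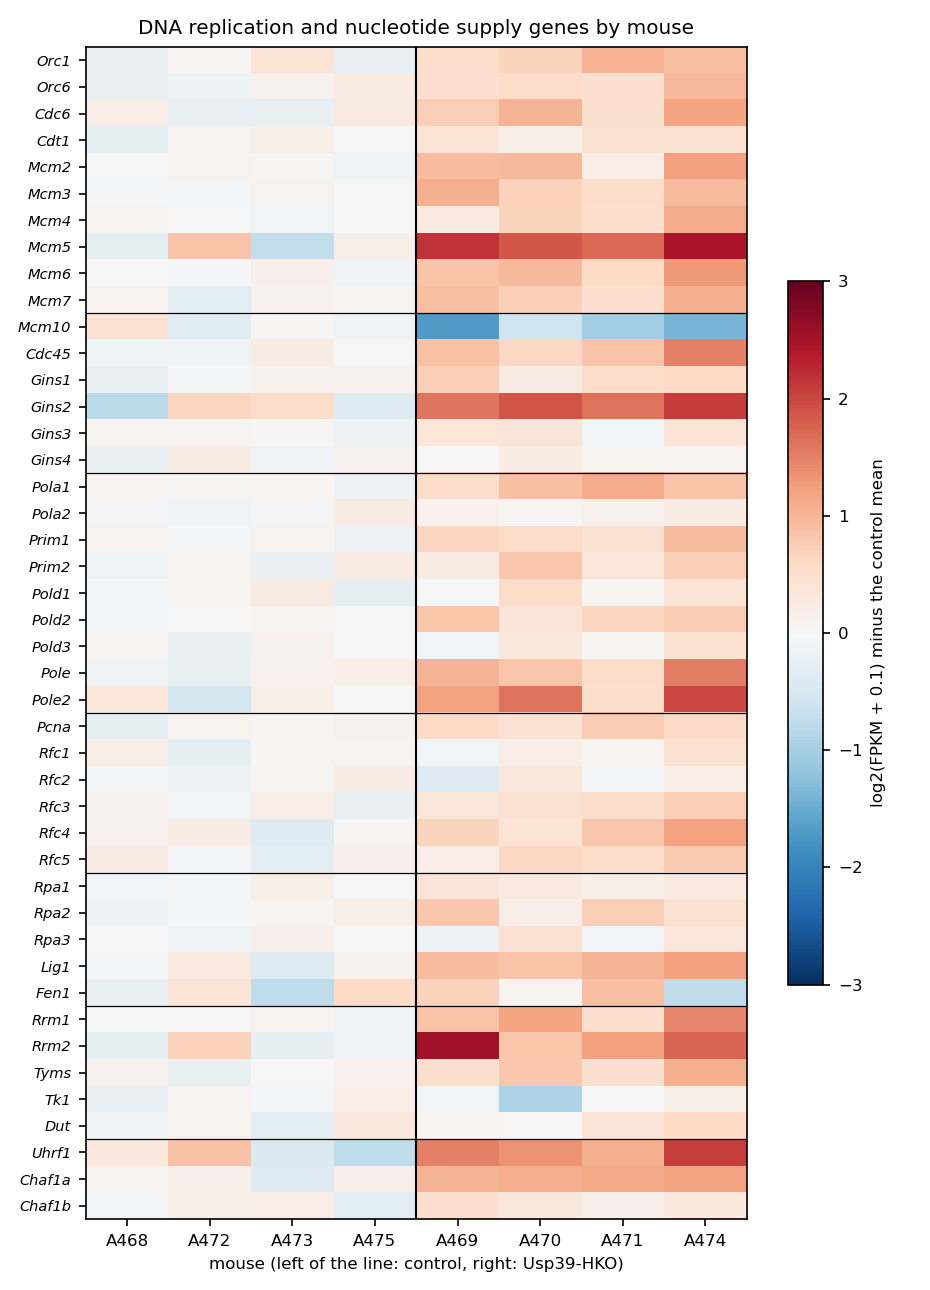
Level of each of the 44 genes (lines, ordered by role, with black lines between roles) in each of the 8 mice (columns), as log2(FPKM + 0.1) minus the mean of the 4 controls. Red is above and blue below the control mean. Most members are red in all 4 Usp39-HKO mice, Mcm5 and Gins2 deeply so, and Mcm10 is blue in all 4. No TMM factor is applied here, and in FPKM 26.1% of all genes tested had every Usp39-HKO mouse above every control.

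Mouse by mouse, the FPKM of the 44 genes summed to 84.8, 88.1, 88.7 and 91.6 in the controls and to 122, 117, 115 and 137 in Usp39-HKO mice A469, A470, A471 and A474. The groups did not overlap, and did not on the TMM scale either, where controls spanned 93.4 to 98.2 and Usp39-HKO livers 107 to 120. Mouse A474 had the highest Usp39-HKO level of 26 of the 44 genes in FPKM. On the TMM scale the highest sum was that of A469, at 120, and A474 was at 114. In 29 of the 44 genes, 26 of them among the 40 tested, every Usp39-HKO FPKM lay above every control, against 26.1% of all genes tested. In 1, Mcm10, every one lay below, against 4.89%. On the TMM scale 21 members, 18 of them among the 40 tested, lay above, against 12.7% of genes, and 1 below, against 14.0%. All 16 members that passed the test had groups that did not overlap in FPKM, and on the TMM scale the groups of Mcm2 and Rrm2 overlapped.

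Changes are also given by the level of the gene. Of the 13 members tested with a mean under 1 FPKM over all mice, 7 rose, with a median log2 fold change of 0.72, where 20.5% of all genes at that level rose and their median was 0.32. The 7 include Gins2 and Uhrf1, which met the count minimum only through their Usp39-HKO counts, so their rise adds no support there. Of the 14 members from 1 to 3 FPKM, 5 rose with a median of 0.42, against 15.9% of genes and a median of 0.10. Of the 13 members at 3 FPKM or more, 3 rose and 1 fell, with a median of 0.02, against 8.99% of genes higher and a median of -0.08. The share of genes that rose was highest under 1 FPKM in the whole table too, and the members' median was above that of all genes in each of the 3 ranges.

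**Figure D2:**
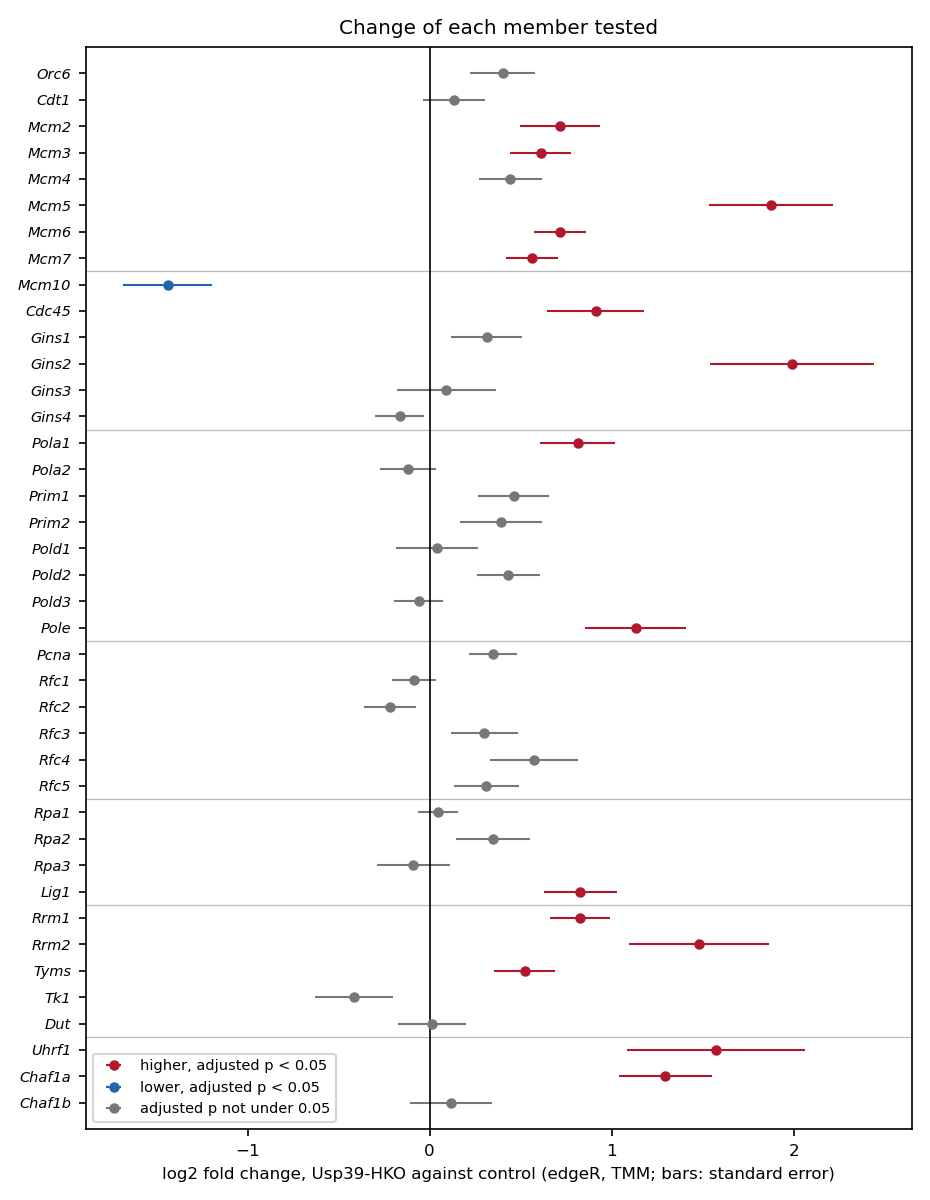
log2 fold change, Usp39-HKO against control (x axis), for the 40 members tested (y axis, by role, with grey lines between roles), with bars of 1 standard error from edgeR. Red members rose and the blue member, Mcm10, fell at an adjusted p under 0.05, and grey members did neither.

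Among the genes that license origins, most genes of the Mcm2 to Mcm7 ring rose: 5 of the 8 licensing genes tested rose and none fell, with a median log2 fold change of 0.59, and their summed level lay between 13.7 and 15.1 FPKM in controls and between 21.6 and 31.6 in Usp39-HKO. Mcm5, a ring subunit at chr8:75109569-75128439, changed most. It was at 0.355, 0.910, 0.233 and 0.529 FPKM in the controls and at 2.42, 1.92, 1.71 and 2.96 in Usp39-HKO livers. Every mutant was well above the highest control, A472, and the log2 fold change was 1.87 (SE 0.34, adjusted p = 0.00399, edgeR). Its raw counts were 8 to 36 in controls and 65 to 112 in mutants. Mcm2, the subunit that also carries histones at the fork, was at 0.673, 0.725, 0.686 and 0.607 FPKM in controls and at 1.39, 1.42, 0.784 and 1.70 in mutants. The lowest mutant, A471, lay just over the highest control, and the log2 fold change was 0.72 (SE 0.22, adjusted p = 0.0356, edgeR). Mcm2 passed the threshold in 1 of the 8 fits that left out a mouse, with an adjusted p of 0.00781 to 0.0960. Mcm7, the most abundant licensing gene, was at 3.84, 2.87, 3.95 and 3.77 FPKM in controls and at 6.79, 5.96, 5.12 and 7.56 in mutants. All mutants lay above all controls, A472 was the lowest mouse, and the log2 fold change was 0.56 (SE 0.14, adjusted p = 0.0172, edgeR).

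Mcm6 went from 2.199 ± 0.18 FPKM (SD, n = 4) to 4.33 ± 0.89, a log2 fold change of 0.72 (SE 0.14, adjusted p = 0.00585, edgeR). Mcm3 went from 1.75 ± 0.10 to 3.18 ± 0.52 FPKM, a log2 fold change of 0.61 (adjusted p = 0.0228, edgeR). Mcm4, the remaining subunit of the ring, was at 1.54 ± 0.07 and 2.52 ± 0.65 FPKM with no overlap, and its log2 fold change of 0.44 missed the threshold (adjusted p = 0.0832, edgeR). The 6 subunits form one complex in equal parts, and their fitted log2 fold changes ran from 0.44 to 1.87, with that of Mcm5 the highest. Differences between subunits were not tested. Of the loading factors, Orc6, a subunit of the origin recognition complex, was at 1.88 ± 0.30 and 2.97 ± 0.53 FPKM (log2 fold change 0.40, adjusted p = 0.121, edgeR). Cdt1, which brings the ring to the origin, was at 2.03 ± 0.29 and 2.64 ± 0.25 FPKM with overlapping groups (log2 fold change 0.13, adjusted p = 0.605, edgeR). Orc1, the largest subunit of the origin recognition complex, had 1 to 3 counts in the controls and 4 to 7 in the mutants. Cdc6, the loader ATPase, had 1 to 4 counts in the controls and 5 to 11 in the mutants. Neither gene had overlapping counts, and neither reached the count minimum of the test.

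The members that activate the helicase moved in opposite directions: 2 rose, 1 fell and 3 did neither, and the summed level overlapped between the groups, at 19.6 to 21.1 FPKM in controls and 18.8 to 21.7 in mutants. Mcm10, at chr2:4989714-5012791 on the minus strand, encodes a scaffold that is needed to turn the assembled helicase on and is not part of the Mcm2 to Mcm7 ring. It was at 7.45, 4.22, 5.54 and 5.02 FPKM in the controls and at 1.59, 3.58, 2.58 and 2.02 in Usp39-HKO livers. Every mutant lay below every control, with A469 the lowest mouse and A468 the highest. The log2 fold change was -1.44 (SE 0.24, adjusted p = 0.00304, edgeR), and the fall passed the threshold in all 16 alternatives tried, including each that left out a mouse. Its mean control level, 5.56 FPKM, was among the higher ones: 5 of the 44 genes were over 5 FPKM in controls and 19 were under 1. It shares no exon base with another annotated gene.

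Gins2, a subunit of the 4-part GINS complex, showed the largest rise of the members tested, and met the count minimum only through its Usp39-HKO counts. It was at 0.0266, 0.246, 0.227 and 0.0703 FPKM in the controls and at 0.578, 0.718, 0.588 and 0.850 in the mutants. These levels rest on 1, 10, 8 and 3 counts in controls and on 23, 30, 23 and 33 in mutants, and the counts did not overlap. The log2 fold change was 1.99 (SE 0.45, adjusted p = 0.0103, edgeR). Of its exon bases 67.3% are shared with Gse1 on the opposite strand, which was at 2.24 and 2.53 FPKM (log2 fold change -0.08, adjusted p = 0.757, edgeR), and whether the counting used strand is not given in the sources used here. Cdc45, the partner that joins the ring to GINS, went from 0.384 ± 0.057 FPKM (SD, n = 4) to 0.869 ± 0.271, a log2 fold change of 0.91 (adjusted p = 0.0286, edgeR). Gins4, another GINS subunit and one of the most abundant members, was at 9.61, 13.5, 10.4 and 12.5 FPKM in controls and at 11.3, 13.3, 12.2 and 12.0 in mutants. All mutants lay within the range of the controls, and the log2 fold change was -0.16 (adjusted p = 0.397, edgeR). Gins1 was at 2.34 ± 0.25 and 3.45 ± 0.45 FPKM (log2 fold change 0.31, adjusted p = 0.265, edgeR), and Gins3 at 0.418 ± 0.043 and 0.530 ± 0.096 (log2 fold change 0.09, adjusted p = 0.835, edgeR). The 4 genes of this complex thus ranged from under 0.15 to over 11 FPKM in the controls, and 1 of the 4 passed the test.

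**Figure D3:**
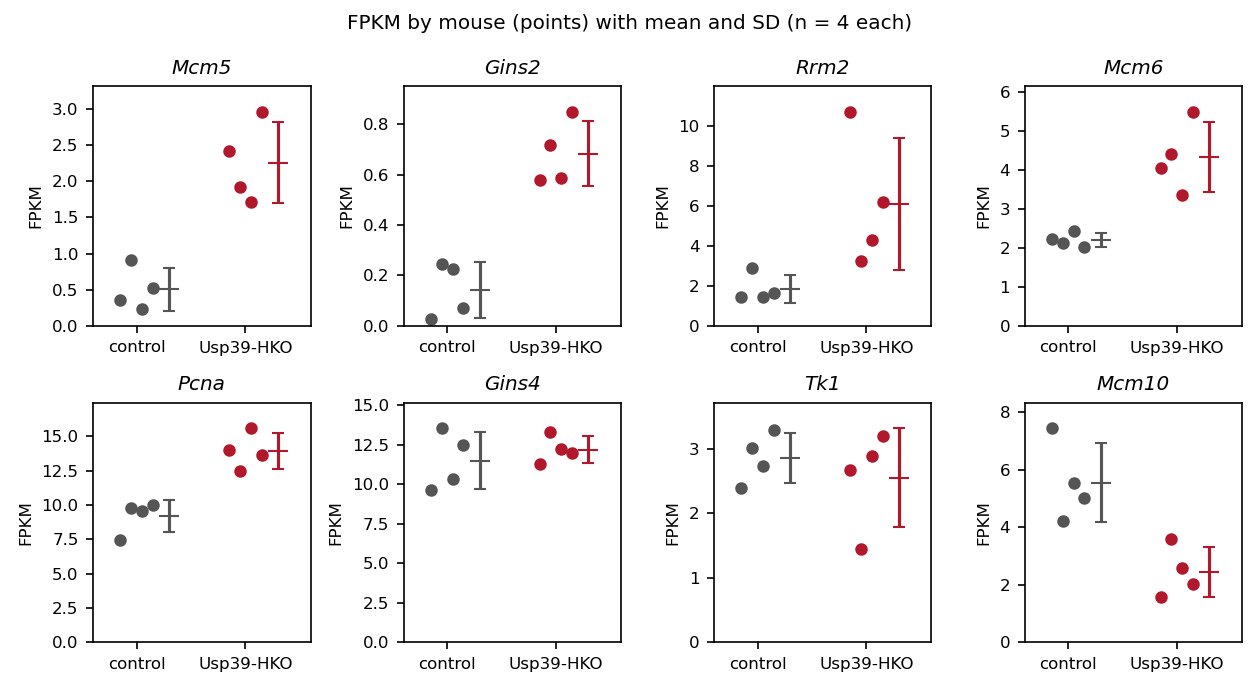
FPKM (y axis, linear from 0) in each mouse for 8 members, with controls as grey points and Usp39-HKO as red points, and the mean with SD (n = 4) beside each group. Mcm5, Gins2, Rrm2, Mcm6 and Pcna show no overlap with the mutants above, Mcm10 none with the mutants below, and the groups of Gins4 and Tk1 overlap.

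Of the 8 genes of polymerases and primase tested, 2 rose and none fell. Both were catalytic subunits: Pole, of the leading-strand polymerase epsilon, and Pola1, of polymerase alpha, which extends primers. Pole was at 0.146, 0.127, 0.188 and 0.206 FPKM in controls and at 0.433, 0.369, 0.291 and 0.671 in mutants. All mutants lay above all controls, A474 the highest, and the log2 fold change was 1.13 (SE 0.28, adjusted p = 0.0144, edgeR). Pola1, on the X chromosome, was at 0.321, 0.309, 0.317 and 0.261 FPKM in controls and at 0.490, 0.646, 0.773 and 0.622 in mutants. The groups lay apart, with a log2 fold change of 0.81 (SE 0.21, adjusted p = 0.0160, edgeR). Pold2, an accessory subunit of polymerase delta and the most abundant gene of this role, was at 2.64, 2.71, 2.95 and 2.73 FPKM in controls and at 4.99, 3.62, 4.37 and 4.73 in mutants. These groups lay apart as well, and its log2 fold change of 0.43 (SE 0.17) missed the threshold (adjusted p = 0.0868, edgeR). The catalytic subunit of that polymerase, Pold1, was at 0.665 ± 0.127 and 0.817 ± 0.171 FPKM with overlap (log2 fold change 0.04, adjusted p = 0.911, edgeR). The primase subunits Prim1 and Prim2, which make the RNA primer, had log2 fold changes of 0.46 and 0.39 (adjusted p = 0.105 and 0.226, edgeR). The accessory subunits Pola2 and Pold3 were at -0.12 and -0.06 (adjusted p = 0.614 and 0.777, edgeR). Pole2, the second subunit of polymerase epsilon, was not tested and had 1 to 4 counts in controls and 5 to 19 in mutants. Fitted without the count filter, Pole2 had a log2 fold change of 1.80 (adjusted p = 0.0211, edgeR), on these few counts. The other members left out for low counts did not pass in that fit. Cdc6 was at 1.53, Orc1 at 1.29 and Fen1 at 0.19 (adjusted p = 0.0816, 0.226 and 0.926, edgeR).

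None of the 6 genes of the clamp and the clamp loader passed the edgeR test, and none passed in DESeq2. Of the 6, 2 had an unadjusted p under 0.05 and 4 had a log2 fold change above 0. Pcna, the ring that holds polymerases on DNA and a common marker of proliferating cells, was at 7.49, 9.79, 9.56 and 9.998 FPKM in controls and at 13.98, 12.5, 15.6 and 13.6 in mutants. All mutants lay above all controls, also on the TMM scale. Its log2 fold change was 0.35 (SE 0.13, adjusted p = 0.0705, edgeR). Pcna passed the threshold in 3 of 16 alternatives, the 3 that apply no factor for library composition. Rfc4, a subunit of the five-part loader that opens the clamp, was at 1.35, 1.45, 0.911 and 1.25 FPKM in controls and at 2.01, 1.66, 2.26 and 2.96 in mutants. Mutants lay above controls in FPKM, and the groups overlapped on the TMM scale. The log2 fold change was 0.57 (SE 0.24, adjusted p = 0.108, edgeR). Rfc4 shares 12.65% of its exon bases with Eif4a2 on the opposite strand, at 47.25 FPKM in controls and 49.27 in mutants. The part of that overlap in the Rfc4 value was not tested. Rfc3 and Rfc5 were at log2 fold changes of 0.30 and 0.31 (adjusted p = 0.257 and 0.227, edgeR), and Rfc1 and Rfc2 at -0.08 and -0.22 (adjusted p = 0.645 and 0.298, edgeR).

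Of the 4 genes of single-strand binding and the lagging strand tested, 1 rose, namely Lig1, the ligase that seals Okazaki fragments. It was at 0.689, 0.898, 0.518 and 0.787 FPKM in controls and at 1.45, 1.36, 1.55 and 1.80 in mutants. The groups lay apart, with a log2 fold change of 0.83 (SE 0.20, adjusted p = 0.0138, edgeR). The 3 subunits of replication protein A, which coats single strands in replication and in repair, did not pass in edgeR or DESeq2, and 0 of the 3 had an unadjusted p under 0.05. Rpa2 was at 1.64, 1.75, 1.91 and 2.09 FPKM in controls and at 3.30, 2.13, 3.12 and 2.57 in mutants, with a log2 fold change of 0.35 (adjusted p = 0.230, edgeR). Rpa1, the largest subunit and the most abundant gene of the role, was at 5.17, 5.28, 6.199 and 5.42 FPKM in controls and at 7.21, 6.79, 6.26 and 6.81 in mutants, with a log2 fold change of 0.05 (adjusted p = 0.793, edgeR). Both pairs of groups lay apart in FPKM and overlapped on the TMM scale. Rpa3 was at 3.32 ± 0.28 and 3.72 ± 0.83 FPKM (log2 fold change -0.09, adjusted p = 0.777, edgeR). Fen1, the flap nuclease that trims Okazaki fragments, had 0 to 4 counts in controls and 0 to 5 in mutants. Other genes share 84.2% of its exon bases, the antisense gene Gm10143 alone 78.8%, so reads of these genes may have been split and the Fen1 value is uncertain.

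Among the enzymes of nucleotide supply, both subunits of ribonucleotide reductase, the enzyme that makes deoxynucleotides, rose, as did thymidylate synthase (Tyms), which makes dTMP. Rrm2, the regulated small subunit of the reductase, was at 1.45, 2.91, 1.43 and 1.63 FPKM in controls and at 10.7, 3.22, 4.31 and 6.21 in mutants. The spread was wide in both groups: A469 was far above the other mutants, A472 far above the other controls, and the lowest mutant was just over A472. The log2 fold change was 1.48 (SE 0.39, adjusted p = 0.0184, edgeR), and it passed in 5 of the 8 fits that left out a mouse, with values from 1.02 to 1.78. Rrm1, the large catalytic subunit, was at 1.42, 1.45, 1.54 and 1.33 FPKM in controls and at 2.68, 3.36, 2.08 and 4.11 in mutants. The controls were tight and all mutants lay above them, with a log2 fold change of 0.83 (SE 0.16, adjusted p = 0.00573, edgeR). Tyms went from 1.02 ± 0.13 FPKM (SD, n = 4) to 1.75 ± 0.36, a log2 fold change of 0.52 (adjusted p = 0.0418, edgeR) that passed in 2 of the 8 fits without a mouse. Tk1, the salvage kinase for thymidine, which also yields dTMP, did not pass the test. It was at 2.85 ± 0.38 FPKM in controls and 2.55 ± 0.77 in mutants, with overlapping groups and a log2 fold change of -0.42 (adjusted p = 0.175, edgeR). Tk1 shares 1.6% of its exon bases with Afmid on the opposite strand, which fell from 13.2 to 5.79 FPKM (log2 fold change -1.43, adjusted p = 0.00247, edgeR), and the part of that overlap in the Tk1 value was not tested. Dut, which removes dUTP, was at 2.77 ± 0.54 and 3.35 ± 0.66 FPKM (log2 fold change 0.02, adjusted p = 0.961, edgeR).

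Of the 3 genes that act on chromatin at the fork, 2 rose. Uhrf1, which reads newly copied DNA that carries methyl groups on 1 strand and brings in the maintenance methyltransferase, was at 0.205, 0.355, 0.0820 and 0.0451 FPKM in controls and at 0.604, 0.530, 0.418 and 0.941 in mutants. All mutants lay above all controls, on 2 to 15 counts in controls and 17 to 38 in mutants. Uhrf1 met the count minimum only through its Usp39-HKO counts. The log2 fold change was 1.57 (SE 0.49, adjusted p = 0.0365, edgeR), and it passed in 3 of the 8 fits without a mouse. Chaf1a, the large subunit of the histone chaperone CAF-1, was at 0.148, 0.160, 0.0789 and 0.163 FPKM in controls and at 0.372, 0.399, 0.414 and 0.441 in mutants. Mutants were tight and apart from controls, with a log2 fold change of 1.30 (SE 0.25, adjusted p = 0.00529, edgeR). Of its exon bases 52.5% are shared with Ubxn6 on the opposite strand, at 3.35 and 3.44 FPKM. Chaf1b, the middle subunit of CAF-1, was at 0.605, 0.733, 0.746 and 0.492 FPKM in controls and at 0.945, 0.838, 0.717 and 0.811 in mutants. Its groups overlapped, and the log2 fold change was 0.12 (adjusted p = 0.735, edgeR).

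Calls differed in how far they rested on single mice. Of the 16 members that passed, 9 passed in every alternative that tested them: Mcm5, Mcm6, Mcm7, Mcm10, Gins2, Pole, Lig1, Rrm1 and Chaf1a. Pole and Chaf1a were among 4 of the 16 that a minimum of 0.5 FPKM in 4 mice left untested, and Gins2 and Cdc45 reached that minimum through Usp39-HKO mice alone. Gins2 also met the mean count minimum only through its Usp39-HKO counts, so its passes in fits with that count minimum add no support. None of the 16 changed sign in any alternative. The rest of them, Mcm2, Mcm3, Cdc45, Pola1, Rrm2, Tyms and Uhrf1, missed the threshold in at least 1 fit that left out a mouse. Their highest adjusted p in those fits was 0.0960 for Mcm2, 0.0587 for Mcm3, 0.0852 for Cdc45, 0.0561 for Pola1, 0.0573 for Rrm2, 0.113 for Tyms and 0.0996 for Uhrf1 (edgeR). Without control A475 every one of these missed it, and without control A468 all but Pola1 did. Cdc45, Mcm2 and Tyms missed it without control A472, and Mcm2, Rrm2, Tyms and Uhrf1 without control A473. Mcm2 missed it without Usp39-HKO mouse A469, Mcm2, Tyms and Uhrf1 without A470, and Cdc45, Mcm2, Tyms and Uhrf1 without A474. None of them missed it without A471.

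The wider pathway was described with 92 other genes, grouped by function and chosen with earlier results of these data known. Over these lists 87 genes were tested, 32 rose and 1 fell, and 22 of the 32 were the mitosis genes described below. Among all genes tested, 12.4% rose and 13.2% fell. Outside mitosis the lists ran from 0 of 13 to 4 of 16 in most cases, and their shares were not tested against that of all genes. Of the 11 genes tested for origins and their firing, 2 rose: Ticrr, which recruits Cdc45, from 0.0400 to 0.225 FPKM (log2 fold change 2.22, adjusted p = 0.0165, edgeR), and Dbf4, the activator of the kinase Cdc7, from 0.381 to 1.49 FPKM (1.69, adjusted p = 0.00106, edgeR). Of the 2 inhibitors, Gmnn, which binds Cdt1, rose from 4.23 to 8.17 FPKM (0.69, adjusted p = 0.0317, edgeR). Gmnn passed in 2 of the 8 fits without a mouse, with an adjusted p up to 0.0879 (edgeR), and its groups overlapped on the TMM scale. Of 16 fork and polymerase accessory genes, 4 rose, among them Top2a, a topoisomerase of late S phase and mitosis (1.51, adjusted p = 0.00832, edgeR), and Clspn, a mediator of the replication checkpoint (1.38, adjusted p = 0.0130, edgeR). Of 12 other nucleotide enzymes, 2 rose and 1 fell. Ctps, the CTP synthase, rose from 3.31 to 8.46 FPKM (1.10, adjusted p = 0.00374, edgeR). Shmt1, the cytosolic serine hydroxymethyltransferase that feeds the folate cycle, fell from 43.5 to 31.1 FPKM (-0.73, adjusted p = 0.00186, edgeR). Of 11 other chromatin genes, 1 rose, Asf1b, a histone chaperone (1.80, adjusted p = 0.00819, edgeR). Ticrr, Clspn and Asf1b had under 10 counts in every control and met the count minimum only through their Usp39-HKO counts. They are counted in the 32, so their rise adds no support to that number. None of the 13 E2F and pocket protein genes passed in edgeR, 5 had an unadjusted p under 0.05 and 1 passed in DESeq2, the pocket protein gene Rbl1, which is named here after its values were seen. The lowest edgeR p was that of Rbl2, a pocket protein, at -0.34 (adjusted p = 0.0555, edgeR).

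All 22 genes of mitosis tested rose, with log2 fold changes from 1.17 to 3.37 and a median of 1.98, where the 40 replication genes had a median of 0.40. Of the 22, Bub1, Ndc80 and Ttk had a mean under 10 counts in the controls. They met the count minimum only through their Usp39-HKO counts, so their rise adds no support to that number. Ccnb1, cyclin B1, went from 0.556 ± 0.244 to 6.91 ± 2.002 FPKM (SD, n = 4), a log2 fold change of 3.37 (SE 0.31, adjusted p = 0.000326, edgeR). Cdc20, which activates the ligase that ends metaphase, went from 1.45 ± 1.05 to 13.95 ± 3.11 FPKM, a log2 fold change of 3.01 (SE 0.37, adjusted p = 0.000947, edgeR). Their summed level was 12.4 to 24.9 FPKM in controls and 67.5 to 118 in mutants, while that of the 44 replication genes was 84.8 to 91.6 and 115 to 137. The difference between these groups of genes was not tested.

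**Figure D4:**
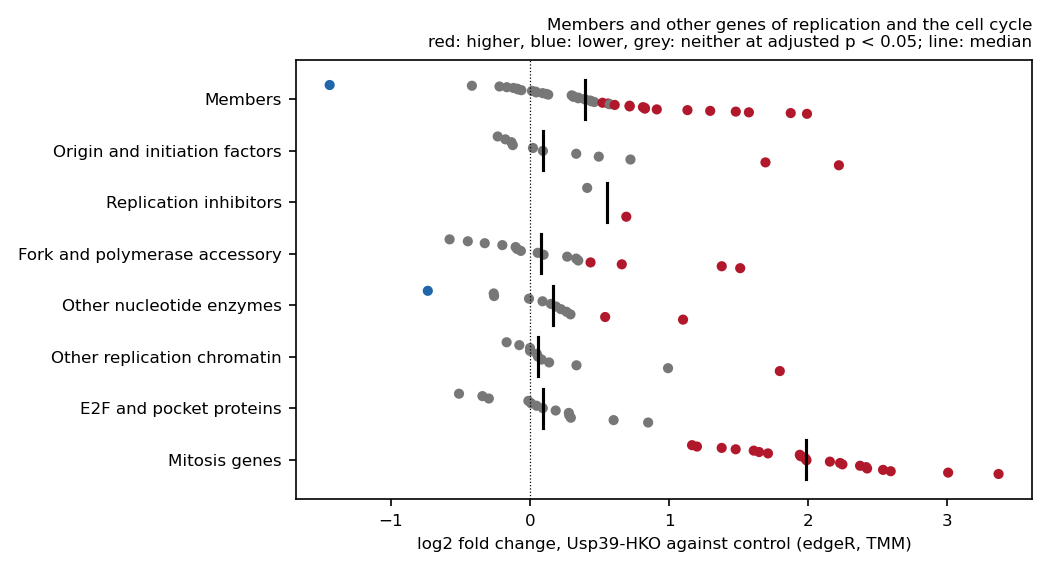
log2 fold change, Usp39-HKO against control (x axis), of each gene tested (points) in the 40 members and the 7 other groups (y axis), with a black line at each median. Points are red where the gene rose, blue where it fell and grey where it did neither at an adjusted p under 0.05. The 22 mitosis genes all lie right of 1, and the members spread from -1.44 to 1.99.

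The windows of these groups were compared for their motifs. Of the 13 members that rose and had a promoter in the table, 7 held the E2F match, as did 5 of the 19 that were tested and passed in neither direction and 3 of the 4 that were not tested. Those 7 were Mcm3, Mcm5, Mcm6, Mcm7, Pola1, Lig1 and Uhrf1. Of 17 mitosis genes with a promoter, 1 held it. The CHR motif (TTTGAA or TTTAAA, either strand), an element of genes expressed in mitosis, was in 15 of these 17 (88.2%), in 9 of 37 members (24.3%) and in 30.6% of all genes. The CCAAT motif (CCAAT, either strand), bound by NF-Y, was in 14 of the 17 (82.4%), in 23 of 37 members (62.2%) and in 41.1% of all genes. TTTAAA reads the same on both strands, no motif contains another, and the shares are given with no test.

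**Figure D5:**
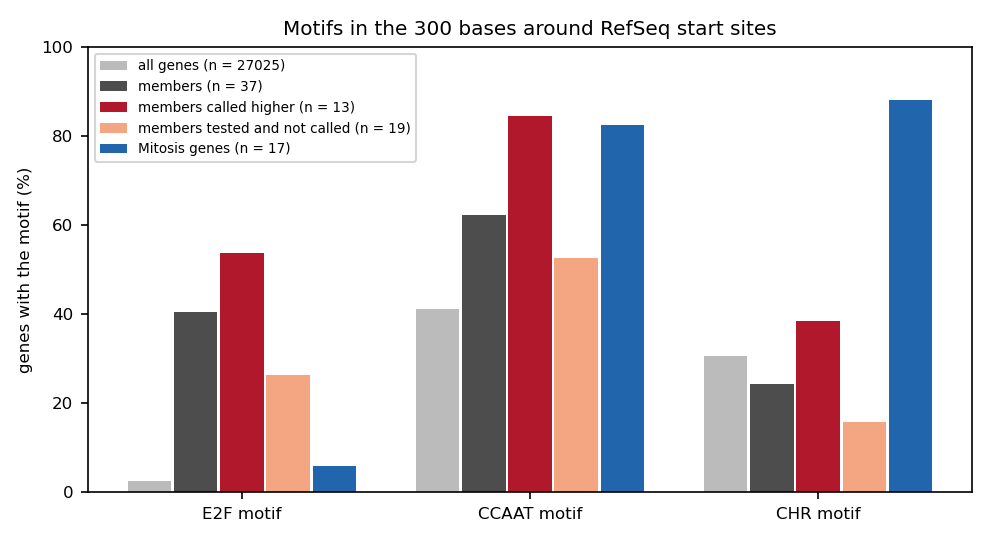
Share of genes (y axis, percent) with the E2F, CCAAT or CHR motif in the 300 bases around a RefSeq start site, for all genes, the 37 members with a promoter, those that rose, those that passed in neither direction, and the mitosis genes. The E2F motif is in 40.5% of members and 5.88% of mitosis genes, and the CHR motif in 24.3% and 88.2%.

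Markers of other liver cells moved with the genotype as well. Over all marker lists 52 genes were tested, 15 rose and 13 fell, where 12.4% of all genes tested rose and 13.2% fell. Stellate cell and fibroblast markers rose in 6 of 7, and summed to between 64.0 and 73.6 FPKM in controls and between 107 and 235 in mutants. Biliary markers rose in 4 of 5, with sums between 26.4 and 28.7 FPKM in controls and between 64.1 and 285 in mutants. Most of each sum was Spp1, at 23.2 to 25.0 FPKM in controls and 59.8 to 263 in mutants. Sox9, among those that rose, had overlapping groups in FPKM and on the TMM scale. Macrophage markers rose in 5 of 6, with sums between 277 and 361 FPKM in controls and between 475.1 and 726 in mutants. Of 4 erythroid markers tested, 3 fell, and the 8 of that list summed to 169 to 339 FPKM in controls and 66.1 to 148 in mutants. Of 6 hepatocyte markers, 2 fell, and of 5 endothelial markers 1 fell. No B cell, T cell or neutrophil marker passed the test, out of 4, 4 and 3 tested in edgeR, with 0 at an unadjusted p under 0.05 and 0 in DESeq2. Of 8 pancreas markers 7 fell in edgeR and 0 passed in DESeq2, and control A475 alone held their high level. No marker of these lists was at 0 in all mice. Which cells carried the replication RNA, and the part of these cell types in it, was not tested.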

How the data were processed

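Liver RNA was extracted with TRIzol and sequenced on an Illumina NovaSeq. Per the study's methods, the authors aligned reads to mm10 with HISAT2 and used featureCounts for gene counts. The submitters' processing notes also name Trim Galore 0.6.1, FastQC 0.11.9 and Picard, with no role given. The annotation release, the use of strand, whether duplicate reads were removed and the treatment of reads that fit several genes are not given in the sources used here. The table, as deposited, gives unnormalized gene counts of each mouse, and FPKM that the authors computed from those counts, the exon length and the total count, which give the deposited FPKM back within 0.1% for 100% of values. The authors also deposited columns of their DESeq2 comparison: a mean normalized signal, a log2 fold change, its standard error and Wald statistic (scores), and unadjusted and adjusted p-values. None of these was used. The 314 repeated entries of the table differ only in symbol and were read once.

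Genes with a mean of at least 10 counts over the 8 mice (14009) were tested with edgeR 4.0.16 (quasi-likelihood test, TMM factors, genotype as the only term), with two-sided p-values adjusted by the Benjamini-Hochberg method over all of them. The standard error is the log2 fold change divided by the square root of F. The common biological coefficient of variation was 0.191. Levels are the deposited FPKM, and on the TMM scale the FPKM divided by the factor of the mouse. Alternatives used RLE factors, no factors, DESeq2 1.42.0, limma 3.58.1 on log2(FPKM + 1) and log2(FPKM + 0.1), voom with sample weights, no filter, FPKM of at least 0.5 in 4 mice, the cutoff of the study (p under 0.05 and a log2 fold change beyond 0.5 in either direction) and each fit without 1 mouse. No molecular identifiers are named in the sources used here, so floors of 3 counts cover counting error alone. Pairs of libraries of one genotype differed beyond sampling noise (chi-square over its degrees of freedom between 7.07 and 37.7), and each was counted as a separate sample. The edgeR, DESeq2, limma and voom fits were tested on simulated data. That simulation set no shift in library composition between the genotypes, so it does not cover how calls depend on the TMM factors. GENCODE vM21 on GRCm38, the assembly of mm10, gave coordinates, with exon lengths equal to those of the table for all 44 genes. Promoter sequences are from RefSeq.

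The members and the gene lists were chosen with earlier results of these data known. Within each role, the text gives mouse by mouse the 2 members with the largest absolute log2 fold change and the one with the highest mean FPKM, and it names each member that fell or passed with overlapping groups. Of each other list it names the 2 genes with the largest change that passed, or the one with the lowest p. Chtf8 has 2 identifiers in the table and was left out. The labels name no batch, litter or sequencing run. Mice are numbered in the order of their records, which pairs no samples.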

Additional observations from a re-analysis of the deposited data

Results flagged for a closer look

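Among 90 groups of 4 mice examined (the 44 members and Usp39 in each genotype), 4 held a mouse whose gap to its nearest neighbour exceeded Dixon's critical share of the range of the group. Chance alone gives about 1 in 20 such groups. Orc6 was at 3.76 FPKM in Usp39-HKO mouse A474 and at 2.67 to 2.78 in the other 3 mutants. Gins3 was at 0.387 FPKM in Usp39-HKO mouse A471 and at 0.570 to 0.584 in the other 3. Control mouse A472 stood apart in 2 genes, below the other controls for Mcm7 (2.87 FPKM against 3.77 to 3.95) and above them for Rrm2 (2.91 FPKM against 1.43 to 1.63).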

How the results depend on the processing

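Without TMM factors the number of members that rose went from 15 to 23, and under limma on log2(FPKM + 0.1) and log2(FPKM + 1) to 25 each, while all genes higher went from 1740 to 3953, 3646 and 3539 and all genes lower from 1849 to 748, 714 and 695. All 15 were among those 23, 25 and 25, and 1 member fell under each alternative. Fits without 1 mouse gave 8 to 15 members, 1110 to 2058 genes higher and 1088 to 1872 lower. With FPKM of at least 0.5 in 4 mice, 35 members were tested and 11 rose, and the 4 that no longer passed were not tested. Of the 11, Gins2 and Cdc45 reached that minimum through Usp39-HKO mice alone, so their pass there adds no check. Other replication genes lower went from 1 to 2 with DESeq2, 3 with voom, 2 with no filter, 3 with the cutoff of the study, and 1 to 3 without 1 mouse. Cell-type markers lower went from 13 to 7 (DESeq2), 6 (FPKM minimum), 3 and 3 (limma, both pseudocounts), 8 (voom) and 4 to 13 without 1 mouse, with 4 without control A475, the mouse with pancreas RNA. The cause of these shifts was not tested.

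Members that changed sign passed the test on neither side. Without TMM factors, and with limma at pseudocounts of 0.1 and 1, log2 fold changes were 0.085, 0.096 and 0.088 for Gins4, 0.13, 0.13 and 0.066 for Pola2, 0.20, 0.18 and 0.14 for Pold3, 0.18, 0.17 and 0.15 for Rfc1, 0.042, 0.021 and 0.020 for Rfc2, and 0.17, 0.14 and 0.11 for Rpa3. Rpa1 was at -0.014 under voom. Over the fits without 1 mouse, values ran from -0.079 to 0.16 for Pold1, -0.13 to 0.015 for Pold3, -0.0034 to 0.11 for Rpa1, -0.21 to 0.0041 for Rpa3, -0.076 to 0.13 for Dut and -0.0020 to 0.20 for Chaf1b.

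No paired analysis was possible because the labels carry no replicate numbers that the groups share. With 4 mice a group, a single gene of low count is limited by few reads: Gins2 rests on 1 to 10 counts in controls.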
